A study of Mus musculus with 4 samples.

Results

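The genes described here encode the translation initiation and elongation factors, the proteins that place ribosomes on mRNA and then move them along it. Members were all genes whose name in the scanner files starts with Eif or Eef followed by a digit, leaving out the X and Y copies of the eIF2 gamma subunit gene, that were well above background on at least 1 of the 4 arrays. Of 64 matching names, 56 met this condition, among 17668 genes well above background on at least 1 array. Well above background is the flag that the scanner software set per spot, and a probe counted where at least 50% of its usable spots carried it. The choice did not use any difference between arrays.

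The study measured mRNA in mouse erythrocyte/megakaryocyte progenitors (MEP) on the C57BL/6 background with 4 single-colour Agilent arrays, 1 per group. The groups were wild-type MEP from fetal liver of day E14.5, MEP labelled Ezh2-null from fetal liver of the same day, wild-type MEP from adult bone marrow, and MEP labelled Ezh2-null from adult bone marrow. Ezh2 encodes the histone methyltransferase of the Polycomb repressive complex. How the progenitors were isolated, the number and sex of the animals, the Cre or promoter used and the part of Ezh2 removed are not given in the labels. With 1 array per group there is no replicate error between arrays, so no comparison of a pair has a test, and every difference below describes those libraries and not the conditions.

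Each level is the probe's spot intensity on a linear scale, after each array was scaled to a common 75th percentile, taken over the 12880 probes that carried the flag on every array. Levels of different probes were not set against each other. Differences are log2 values, and 2-fold (1 on the log2 scale) was the size at which a gene was counted. Where 1 array of a pair was not well above background, the fold is a bound, the bright level against the higher of the dim probe's own level and the lowest level well above background on that array (19.3, 12.6, 11.1 and 9.79 in the order of the groups above), and is written as at least N-fold. Repeat spots of 1 probe within an array had a median SD of 0.0751 to 0.143 on the log2 scale, which covers error within an array only. The arrays had 39.0% to 46.4% of 39418 probes well above background, and the bone marrow arrays correlated at 0.982 over probes, against 0.915 to 0.937 for the other pairs.

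Ezh2 itself read 33.5 on wild-type and 194 on labelled-null fetal liver, and 35.4 on wild-type and 70.0 on labelled-null bone marrow. Its only probe was therefore 5.79-fold and 1.98-fold higher on the arrays labelled Ezh2-null, against the direction a loss of the transcript would give. The probe lies at chr6:47480307-47480366 (mm9), starting 2558 bases into the transcript, and whether the removed part covers it is not given, so it checks neither label. All directions of genotype below rest on the labels. Of 10 erythroid and megakaryocyte progenitor markers, 9 or 10 were well above background on each array, with summed levels of 11900 to 17400. Gata1 was the largest part of each sum, and single markers differed within pairs. On wild-type and labelled-null fetal liver Kit read 96.0 and 362 and Epor 1655 and 706. On the bone marrow arrays in that order Klf1 read 1058 and 3356. Of 9 lymphoid markers 6 were well above background on labelled-null bone marrow, with a summed level of 3900, mostly Vpreb1 (2202) and Dntt (1381), and 3 or 4 on the others, with 91.2 to 208; Il7r, Rag1 and Ighm were below on all 4. Of 10 hepatocyte markers 5 were on wild-type fetal liver (summed level 679) and 2 to 4 on the others (52.7 to 136), with Alb and Afp, their defining genes, not well above background on any array. All 5 on wild-type fetal liver read lower on its labelled-null partner. On that pair Apoa2 read 419 and 79.5, and Rbp4 read 104 and 5.49, the last not well above background. The part of these cell types in the differences below was not tested. In bulk RNA, fewer cells of a type and less RNA per cell cannot be told apart.

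In initiation, the initiator tRNA is carried by eIF2 with GTP to the small ribosomal subunit, where eIF3, eIF1, eIF1A and eIF5 assemble; eIF4F (the cap-binding eIF4E, the scaffold eIF4G and the helicase eIF4A) brings in the mRNA. eIF2B reloads eIF2 with GTP, and kinases that phosphorylate eIF2 block this step. In elongation, eEF1A delivers aminoacyl-tRNA, the eEF1B subunits reload eEF1A, and eEF2 moves the ribosome by a codon. In red cell precursors the haem-regulated kinase encoded by Eif2ak1 is known to tie globin synthesis to haem supply.

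In fetal liver, 18 of 54 members compared exceeded the wild-type array by 2-fold or more on its labelled-null partner (33.3%, against 15.4% of all genes) and 3 were lower by as much (5.56%, against 13.5%). In bone marrow 1 of 55 members was higher (1.82%, against 4.54% of all genes) and 8 of 55 were lower, against 7.74%. Of these 8, Eif2c3 and Eif4ebp3 were members only through wild-type bone marrow, where they are high, so the condition fixed their direction; without members measured on 1 array only, 6 of 53 were lower (11.3%). The members higher in fetal liver were initiation factors or genes filed under initiation factor names, and 0 of 9 elongation genes reached 2-fold in either source at this scaling (2, Eef1b2 and Eef1g, were lower in fetal liver with the percentile over all probes). The median difference of the members was 0.27 in fetal liver and -0.10 in bone marrow, beside -0.14 and -0.03 over all genes. Scaling to the spike-in RNA would add 0.47 to every fetal liver difference and 0.03 to every bone marrow one, and scaling to the percentile over all probes would add -0.16 and 0.11. The fetal liver split of 18 higher and 3 lower became 24 and 0 with the first and 14 and 7 with the second. Of all genes, 23.8% were higher and 4.86% lower with the first, and 13.3% and 18.8% with the second. Normexp background correction left 9 higher in fetal liver (4.9% of all genes were), and 0 higher and 3 lower in bone marrow (1.13% and 1.30% of all genes).

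**Figure D1:**
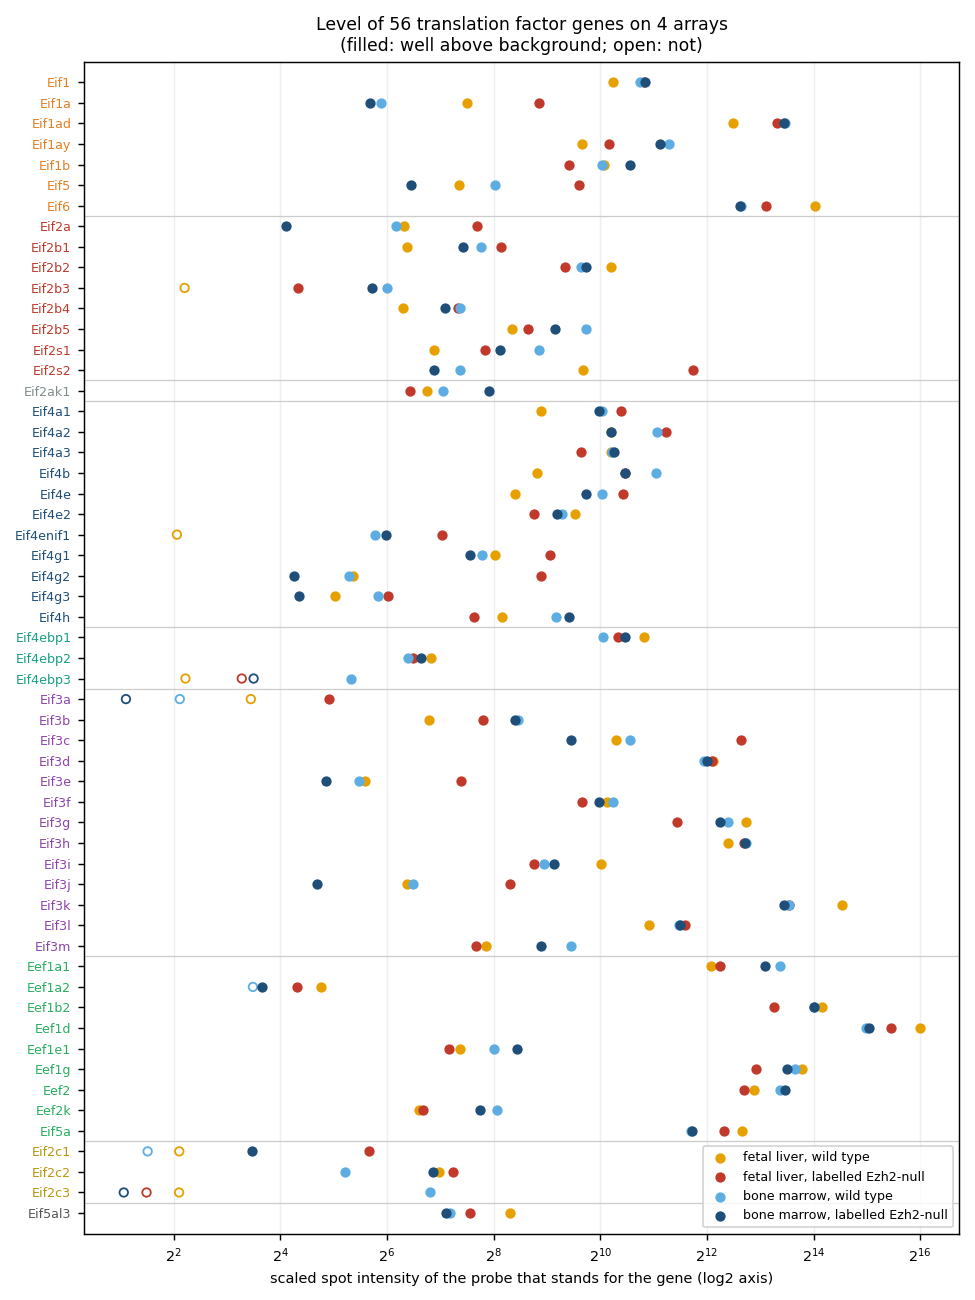
Level (scaled spot intensity, log2 axis) of the 56 genes on the 4 arrays, 1 point per array and no error bar because each group is 1 array; gene names are coloured by role, and open points were not well above background. The red points of labelled-null fetal liver stand to the right of the other colours for Eif5, Eif2s2, Eif3c, Eif3j and Eif4g2, and the dark blue points of labelled-null bone marrow stand to the left for the same genes.

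Of the eIF4F group and its partners, 7 of 11 were at least 2-fold higher on labelled-null fetal liver (63.6%, against 15.4% of all genes). In this group 0 were lower, and the median was 1.03. Eif4g2, which encodes an eIF4G relative that works without the cap-binding protein, read 41.1 and 472 in fetal liver (wild type, then labelled null, as in all values that follow) and 39.1 and 19.2 in bone marrow. It was high on 1 array, labelled-null fetal liver, and lowest on labelled-null bone marrow, with differences of 3.52 (11.5-fold higher) and -1.02. Eif4e, the cap-binding protein, read 339 and 1369 in fetal liver and 1049 and 850.3 in bone marrow; wild-type fetal liver was the low array, 4.03-fold under its labelled-null partner. The helicase gene Eif4a1 read 476 and 1335, then 1043 and 1009, the same order of arrays, and its fetal liver difference was 1.49.

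Eif4b, a helper of the helicase, read 452 and 1417 in fetal liver and 2109 and 1421 in bone marrow, 3.13-fold higher on the labelled-null array in the first. Eif4a2, the second helicase gene, read 1173 and 2393, then 2129 and 1181, so that the array labelled null was the higher of the pair in fetal liver and the lower in bone marrow. The scaffold gene Eif4g1 read 262 and 536, then 221 and 188, with differences of 1.03 and -0.23; both lie close to or inside 2-fold. Eif4g3, a further scaffold, read 32.7 and 65.0, then 56.6 and 20.5, and its 2.76-fold lower level on labelled-null bone marrow was past 2-fold while its fetal liver difference of 0.99 was just inside. Eif4enif1, which encodes the transporter that carries eIF4E into the nucleus, was not well above background on wild-type fetal liver (4.17) and read 131 on its labelled-null partner, at least 6.81-fold higher; bone marrow read 54.6 and 63.2. Eif4h, Eif4a3 and Eif4e2 lay between -0.79 and 0.24 in both sources. A dimmer second probe of Eif4e2 read 71.2 and 18.9, then 52.9 and 31.6 (-1.91 and -0.74). With its 3 probes averaged Eif4e2 was past 2-fold lower in both (-1.08 and -1.10). That average takes in a probe well above background on wild-type bone marrow alone (4.63 and 3.20, then 13.1 and 2.39). The averaged values therefore rest partly on levels not well above background.

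The 4E-BP genes encode inhibitors that hold eIF4E away from eIF4G, and none of the measured ones was counted in fetal liver. Eif4ebp1 read 1797 and 1284, then 1057 and 1409, differences of -0.49 and 0.42. Eif4ebp2 read 113 and 89.2, then 84.3 and 99.8, and moved by -0.34 and 0.24. For both the highest array was wild-type fetal liver. Eif4ebp3 was well above background on wild-type bone marrow alone (40.3) and was at least 3.57-fold lower on its labelled-null partner.

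The eIF2 and eIF2B group had 4 of 8 members at least 2-fold higher on labelled-null fetal liver (50%, against 15.4% of all genes). In this group 0 were lower, and the median was 0.99. Eif2s2, the beta subunit of eIF2, read 817 and 3421 in fetal liver and 166 and 118 in bone marrow, 4.19-fold higher on the labelled-null array in fetal liver and within 2-fold in bone marrow. The alpha subunit gene Eif2s1, whose product is the target of the eIF2 kinases, read 118 and 229, then 460.3 and 277, with differences of 0.96 and -0.73 that stayed inside 2-fold. Eif2a, a separate initiator tRNA-binding factor and not an eIF2 subunit, read 80.1 and 206, then 72.1 and 17.3. Its labelled-null array was the highest of the 4 in fetal liver and the lowest in bone marrow, 2.57-fold higher in one and 4.17-fold lower in the other.

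Among the exchange factor subunits, Eif2b1 read 82.7 and 281, then 217 and 171, and was 3.40-fold higher on the labelled-null array in fetal liver. Eif2b4 read 78.7 and 160.1, then 166 and 136, with a fetal liver difference of 1.03. Eif2b5, which carries the exchange activity, read 326 and 400.0, then 848 and 567, and Eif2b2 read 1181 and 646, then 802 and 852; neither passed 2-fold between genotypes. Eif2b3 read 20.2 on labelled-null fetal liver and 63.7 and 52.5 in bone marrow, and was not well above background on wild-type fetal liver (4.61). The subunits of the same complex therefore did not share a direction on the labelled-null fetal liver array, with Eif2b1 at 1.77 and Eif2b2 at -0.87.

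Eif2ak1, the haem-regulated kinase, was the only eIF2 kinase gene well above background. It read 108 and 85.8 in fetal liver and 132 and 242 in bone marrow, where its difference of 0.88 stayed inside 2-fold. Eif2ak2, Eif2ak3 and Eif2ak4, which encode the kinases activated by double-stranded RNA, unfolded protein and amino acid shortage, stayed between 2.04 and 6.64 on all 4 arrays and were left out. The subunit-joining factor gene Eif5b, the cap-binding relatives Eif4e3 and Eif4e1b, Eif5a2 and Eif2c4 were left out for the same reason. Eif4e1b came nearest to the condition, at 14.6 on wild-type fetal liver against a floor of 19.3. Just inside the condition, with 1 array each, were Eif3a (30.1 on labelled-null fetal liver), Eif4ebp3 (40.3) and Eif2c3 (112), the last 2 on wild-type bone marrow.

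Of 7 genes grouped as start codon selection and small-subunit assembly, Eif6 and Eif1ad among them, 2 were at least 2-fold higher on labelled-null fetal liver (28.6%, against 15.4% of all genes). Eif5, the GTPase-activating protein that makes eIF2 release the initiator tRNA, read 163 and 772 in fetal liver and 261 and 87.9 in bone marrow, 4.74-fold higher and 2.97-fold lower on the arrays labelled null. Eif1a, one of the genes for eIF1A, read 181 and 459, then 59.3 and 51.6, and stood 2.53-fold higher in fetal liver and within 2-fold in bone marrow. Its X-linked relative, named Eif1ay in the files and Eif1ax in RefSeq, read 803 and 1152, then 2499 and 2219, inside 2-fold in both sources. Eif1, which guards against wrong start codons, read 1201 and 1816, then 1726 and 1836. Eif6, which keeps the ribosomal subunits apart, read 16722 and 8828, then 6417 and 6331, and its difference of -0.92 in fetal liver was just inside 2-fold.

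The 13 eIF3 subunit genes encode the scaffold of the preinitiation complex. In fetal liver they split into 4 higher and 3 lower (30.8% and 23.1%, against 15.4% and 13.5% of all genes). Eif3c, a core subunit, read 1248 and 6371, then 1503 and 703, 5.10-fold higher on labelled-null fetal liver and 2.14-fold lower on labelled-null bone marrow. Eif3j, the loosely bound subunit, read 83.3 and 315, then 90.0 and 25.9, 3.78-fold higher and 3.48-fold lower. Eif3e read 48.2 and 168, then 44.7 and 28.9, and was 3.49-fold higher in fetal liver. In each of these genes the labelled-null fetal liver array was the highest of the 4 and the labelled-null bone marrow array the lowest.

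The subunits Eif3g, Eif3i and Eif3k had the opposite order in fetal liver. Eif3g read 6838 and 2762, then 5383 and 4834, 2.48-fold lower on labelled-null fetal liver. Eif3i read 1037 and 432, then 491 and 563, 2.40-fold lower, and Eif3k read 23836 and 11878, then 11936 and 11224, 2.01-fold lower. For Eif3i and Eif3k the wild-type fetal liver array stood above the other 3; for Eif3g the labelled-null one stood below them. All 3 came inside 2-fold with spike-in scaling, at -0.84 to -0.53. Eif3b read 111 and 222, then 351 and 336, and was at the edge of 2-fold in fetal liver. Eif3a was well above background only on labelled-null fetal liver, at least 1.56-fold above its partner, and was not counted. Eif3d, Eif3f, Eif3h, Eif3l and Eif3m lay between -0.55 and 0.66 in both sources.

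At the brightest probe of each, the elongation genes lay between -0.90 and 0.17 in fetal liver and between -0.33 and 0.43 in bone marrow, inside 2-fold. With the percentile over all probes Eef1b2 (-1.06) and Eef1g (-1.03) passed it in fetal liver. The median of the elongation genes in fetal liver was -0.34, and 0.13 with spike-in scaling, so that its sign depends on the scaling. Eef1a1, the main eEF1A gene, read 4321 and 4863, then 10631 and 8762. The exchange factor genes were lower on labelled-null fetal liver: Eef1b2 read 18355 and 9836, then 16508 and 16485, and Eef1g read 14084 and 7746, then 12903 and 11652. Eef1d read 65014 and 44688, then 32426 and 33471, and stood highest on both fetal liver arrays.

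Eef2, the translocase, read 7585 and 6597, then 10649 and 11338, differences of -0.20 and 0.09. The kinase gene Eef2k, whose product switches eEF2 off, read 97.3 and 102, then 269 and 214, and at this probe followed the source and not the label. A dimmer second probe of Eef2k read 33.6 and 65.5, then 177 and 239. That probe was also higher in bone marrow, but it differed by 0.97 and 0.43 between genotypes. Eif5a, which helps ribosomes through difficult peptide bonds, read 6451 and 5107, then 3345 and 3375. Eef1e1 read 166 and 143, then 256 and 345. The second eEF1A gene, Eef1a2, known from muscle and neurons, read 27.2 and 19.9, then 11.2 (not well above background) and 12.6.

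Of the genes filed under Eif2c, the older name of the Argonaute family that carries microRNAs, Eif2c2 (Ago2) was the only member counted as higher in bone marrow. It read 126 and 151 in fetal liver and 36.9 and 117 in bone marrow, 3.18-fold higher, with wild-type bone marrow the single low array. Eif2c3 (Ago3) was well above background only on wild-type bone marrow (112), at least 11.4-fold above its partner. Eif2c1 (Ago1) read 50.5 and 11.1 on the labelled-null arrays and was not well above background on the wild-type ones, at least 2.61-fold higher in fetal liver. Without these names and Eif5al3, a RefSeq pseudogene, 17 of 51 members were higher in fetal liver and 0 of 51 in bone marrow, with 3 and 7 lower.

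**Figure D2:**
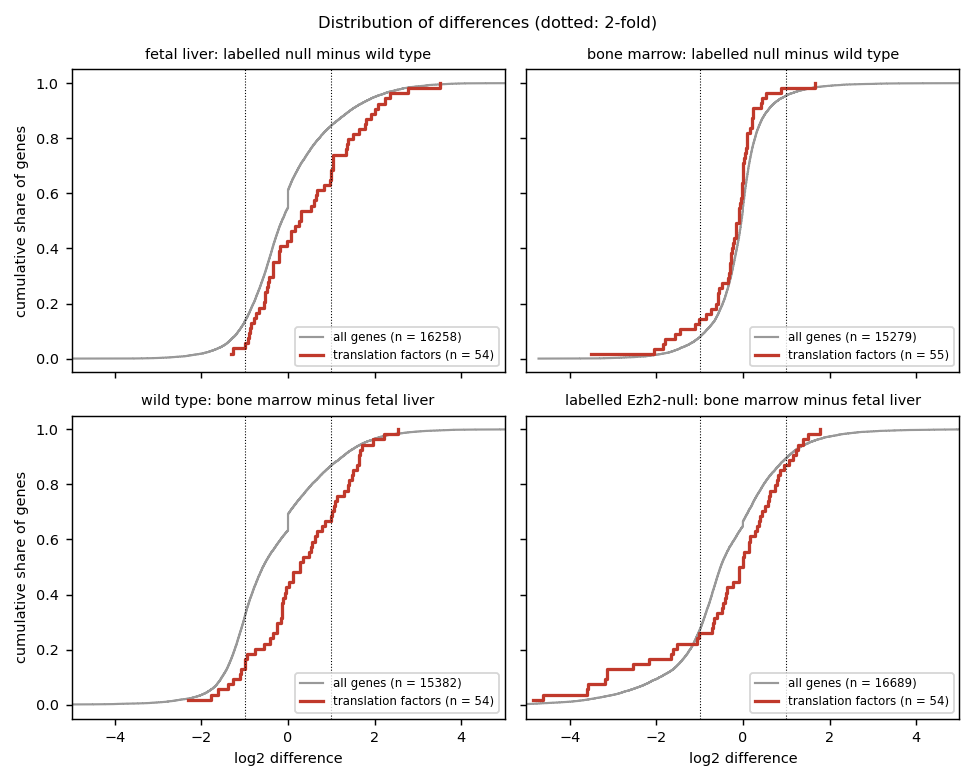
Cumulative share of genes (y axis) at or below each log2 difference (x axis) in the 4 comparisons, for all genes (grey) and the translation factors (red); the step of the grey line at 0 holds bounds entered as no difference. The red line lies to the right of the grey one in fetal liver (median 0.27 against -0.14) and in wild type (0.27 against -0.58), to the right between the labelled-null arrays (-0.04 against -0.52), and close to it in bone marrow (-0.10 against -0.03).

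The genotype differences ran in opposite directions in the sources for many members. The fetal liver and bone marrow differences share no array. Of 49 members well above background on all 4 arrays, 24 were higher on labelled-null fetal liver and lower on labelled-null bone marrow (49.0%, against 22.8% of 11177 genes). A further 13 had the reverse order, 3 were higher in both and 9 lower in both. Of the 11177 genes, 3729 had the reverse order, 1393 were higher in both and 3507 lower in both. Opposite directions of either order made up 75.5% of the members, against 56.2% of all genes. Across the 49 genes the differences correlated at a Pearson r of -0.58 and a Spearman rho of -0.64, beside -0.23 and -0.22 over the 11177 genes. These points share 4 libraries, and genes are not independent replicates.

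Eif4g2, Eif5, Eif3j, Eif3c and Eif2a passed 2-fold upward in fetal liver and downward in bone marrow, 10.2% of the 49 members, against 1.94% of the 11177 genes well above background on all 4 arrays. No member passed 2-fold the same way in both at this choice of probe. Few of all genes did (79 of 11177), so this lies near the background. The bone marrow difference minus the fetal liver one reached 4-fold in 11 of the 49 members, against 9.40% of all genes, and was negative in all 11. It ran from -4.54 for Eif4g2 to -2.12 for Eif2b1, with Eif5 at -3.81, Eif3j at -3.72, Eif3c at -3.45, Eif2a at -3.42, Eif2s2 at -2.55, Eif4g3 at -2.46, Eif3e at -2.43, Eif4e at -2.32 and Eif4b at -2.22. No residual is left for a test of these values, and the sign of such values over all genes was not counted.

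**Figure D3:**
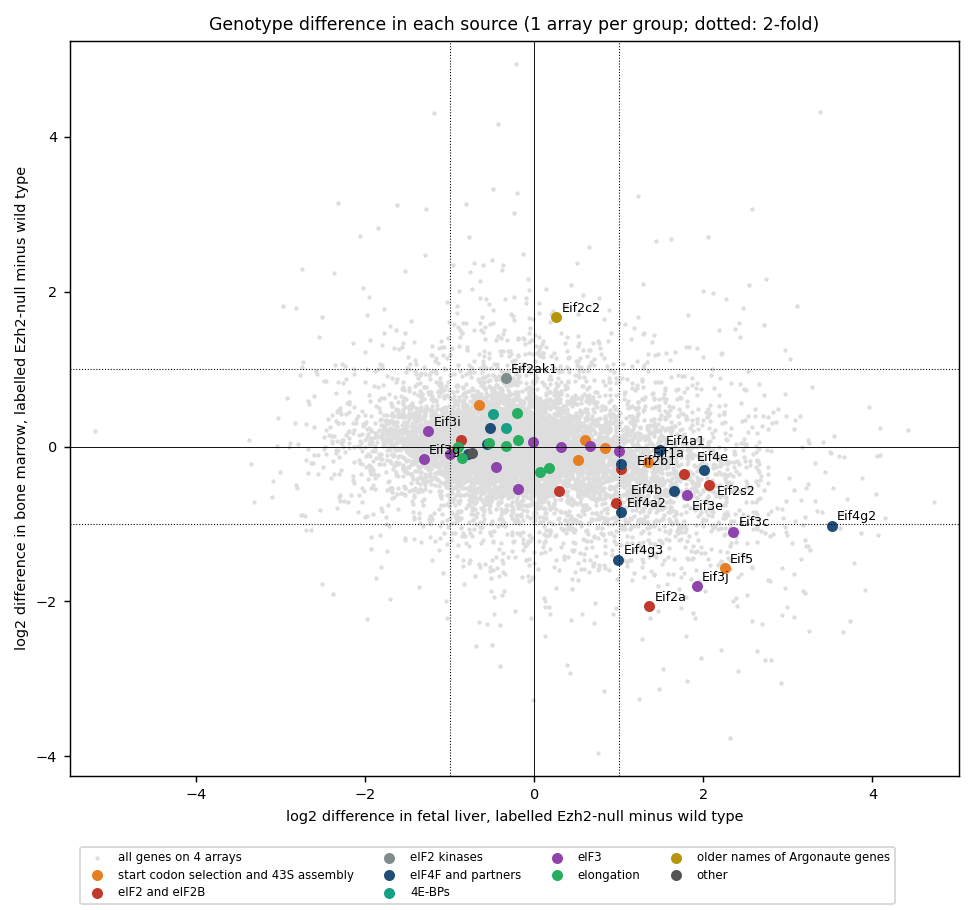
Log2 difference, labelled Ezh2-null minus wild type, in fetal liver (x axis) and bone marrow (y axis) for genes well above background on all 4 arrays, grey for all 11177 and coloured by role for the 49 translation factors; each point rests on 1 array per group. Eif4g2, Eif3c, Eif5, Eif3j and Eif2a lie in the lower right corner past both dotted 2-fold lines.

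Between sources, wild-type bone marrow had 17 of 54 members at least 2-fold higher than wild-type fetal liver (31.5%, against 13.1% of all genes) and 8 lower (14.8%, against 31.9%). Spike-in scaling would add 1.32 to every one of these differences and the percentile over all probes 0.35. The split of 17 and 8 became 40 and 0 with spike-in scaling, against 39.7% and 2.2% of all genes. It became 21 and 4 with the percentile over all probes (18.5% and 15.2% of all genes). With quantile normalization it became 19 and 5 (17.3% and 16.1% of all genes). The size of the split, but not its direction, therefore depended on the scaling, and the shares of all genes moved with it. Normexp background correction gave 10 and 5, against 4.64% and 34.0% of all genes. Eif2c3 and Eif4ebp3 were members through wild-type bone marrow alone, and without the members measured on 1 array 15 of 52 were higher. Relative to the median of all genes, the members' median stood 0.85 higher.

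Highest among the members measured on both wild-type arrays was Eif4b, 4.66-fold higher in bone marrow, followed by Eif2s1 (3.90-fold), Eif3b (3.17-fold), Eif1ay (3.11-fold) and Eif4e (3.09-fold). The other measured Eif4e probes, designed on another transcript model, were past 2-fold lower there (-1.30 and -1.12). Of the bounds, Eif2c3 was at least 5.78-fold, Eif2b3 at least 3.30-fold and Eif4enif1 at least 2.83-fold higher. In all, 5 of the 8 eIF2 and eIF2B genes were on the higher side (Eif2s1, Eif2b1, Eif2b3, Eif2b4 and Eif2b5), 62.5% against 13.1% of all genes. Lowest were Eif2s2 (4.92-fold lower in bone marrow), Eif2c2 (3.42-fold), Eif1a (3.05-fold), Eif6 (2.61-fold) and Eif5al3, which read 315 and 188 in fetal liver and 145 and 137 in bone marrow (2.17-fold in wild type), and Eef1a2 was at least 2.42-fold lower. The subunits of eIF2 thus stood on opposite sides, Eif2s1 at 1.96 and Eif2s2 at -2.30. Eif5al3 turned to 0.20 with spike-in scaling.

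On the labelled-null arrays the count was the other way, with 7 of 54 members higher in bone marrow (13.0%, against 10.5% of all genes) and 14 lower (25.9%, against 27.1%). These shares lie near the background. Relative to the median of all genes, the members' median of -0.04 stood 0.48 higher. The split of 7 and 14 became 24 and 9 with spike-in scaling, which adds 0.88, and 19 and 10 with the percentile over all probes, which adds 0.63. The shares of all genes turned as well, to 29.9% higher and 10.3% lower with spike-in scaling. They were 22.7% and 12.7% with the percentile over all probes. Eif2s2 was 28.9-fold, Eif4g2 24.6-fold, Eif3j 12.2-fold, Eif2a 11.9-fold and Eif3c 9.06-fold lower in bone marrow, all past 2-fold under these scalings too. Eif3a was at least 3.07-fold lower. It was a member only through labelled-null fetal liver, so the condition fixed its direction. Without members measured on 1 array only, 13 of 53 were lower (24.5%, against 27.1% of all genes). On the other side Eif4h read 198 and 679.6 (3.44-fold higher), Eif2ak1 stood 2.82-fold, Eif2b3 2.60-fold, Eef1e1 2.41-fold and Eif3m 2.34-fold higher.

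Members past 2-fold between sources in both genotypes numbered 6. Eif2b3, Eif3m, Eef2k and Eif4h were higher in bone marrow (7.69% of 52 members compared in both, against 5.12% of 14403 genes), and Eif2s2 and Eif1a were lower (3.85%, against 10.5%). The higher share is near the background, and the lower one is under it. Eif4h read 285 and 577 on the wild-type arrays of fetal liver and bone marrow, and Eif3m read 232 and 698 there and 203 and 476 on the labelled-null ones. Eif1a read 181 and 459 in fetal liver and 59.3 and 51.6 in bone marrow, with both bone marrow arrays under both fetal liver ones. In the only fit the layout allows (limma, source and genotype as additive terms, 1 residual degree of freedom), 0 of 53 members tested passed a Benjamini-Hochberg adjusted p of 0.05 for either term, as did 0.00% of 14812 genes. The lowest adjusted p in limma was 0.914 for genotype and 0.299 for source. For source, 8 members (Eef1a1, Eif1ay and those 6 genes) had an unadjusted p of at most 0.05 in limma, against 16.2% of all genes; for genotype 0 did, against 1.35%. Where the fit kept only the 11177 genes well above background on all 4 arrays, it called 274 of them for source. Of the 49 members it called 2, Eif2s2 (-3.58 ± 0.604 SE, limma adjusted p = 0.0104) and Eif1a (-2.38 ± 0.532 SE, limma adjusted p = 0.0351). In this layout the 1 residual degree of freedom is how far a gene's genotype effect shifts from fetal liver to bone marrow. That shift was -2.55 for Eif2s2 and -1.54 for Eif1a. The limma SE and p values above are built on such shifts and not on replicate arrays, so no conclusion on source is drawn from them.

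Members with several probes gave a check within each array. Of 18 other probes measured on both fetal liver arrays, 11 had the direction of the probe that stands for the gene, which was the brightest, and of the 10 that belong to counted members 7 did and 6 also passed 2-fold. In bone marrow 15 of 19 had the same direction. The probes of Eif5 and Eif4e are shown because their second probes moved the most with and against the first; each line gives the first 30 bases of the 60-base probe, in lower case, with no part marked. The numbers that follow the names give where the probe starts in its transcript.
Eif5 at 729: acagacccagtttgatgttaagaatgaccg
Eif5 at 3726: cgttgctctattgaggtgtcataaagtttc
Eif4e at 1554: caccataattacattcctaactagaattag
Eif4e at 769: aaacggacacgtccgtcacgtgggcaggag
The Eif5 probes lie at chr12:112778375-112778434 and chr12:112784725-112784784 and the Eif4e probes at chr3:138219236-138219295 and chr3:138190152-138190211 (mm9, all on the plus strand). The later Eif5 probe read 182 and 1746 in fetal liver and 197 and 34.0 in bone marrow, differences of 3.26 and -2.53, larger than 2.25 and -1.57 at the first. The Eif4e probe at 769 was designed on another transcript model than the one at 1554, and it read 50.4 and 32.8, then 23.2 and 25.2, with a fetal liver difference of -0.62 where the other gave 2.01. A further Eif4e probe of that model, at 333, gave -0.24. The count of Eif4e as higher therefore rests on 1 of its 3 measured probes.

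Other members had probes that differed in the same way. Eif4a2 gave 1.03 and -0.26 in fetal liver, Eif3m -0.19 and 1.42, and Eif1ad 0.83 and -0.45. The probes of Eif2s2 gave 2.07 and 1.92, those of Eif3c 2.35 and 1.47, the 3 of Eif4b 1.37 to 2.27 and the 3 of Eif3k -1.10 to -0.99. Between sources the Eif4b probe at 680 gave -0.61 in wild type where the others gave 2.22 and 1.77, so the count of Eif4b as higher in bone marrow does not hold for that probe. For Eif4e the probe at 1554 gave 1.63 in wild type, and those at 333 and 769 gave -1.30 and -1.12. The count of Eif4e as higher in bone marrow therefore rests on the probe at 1554 alone.

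**Figure D4:**
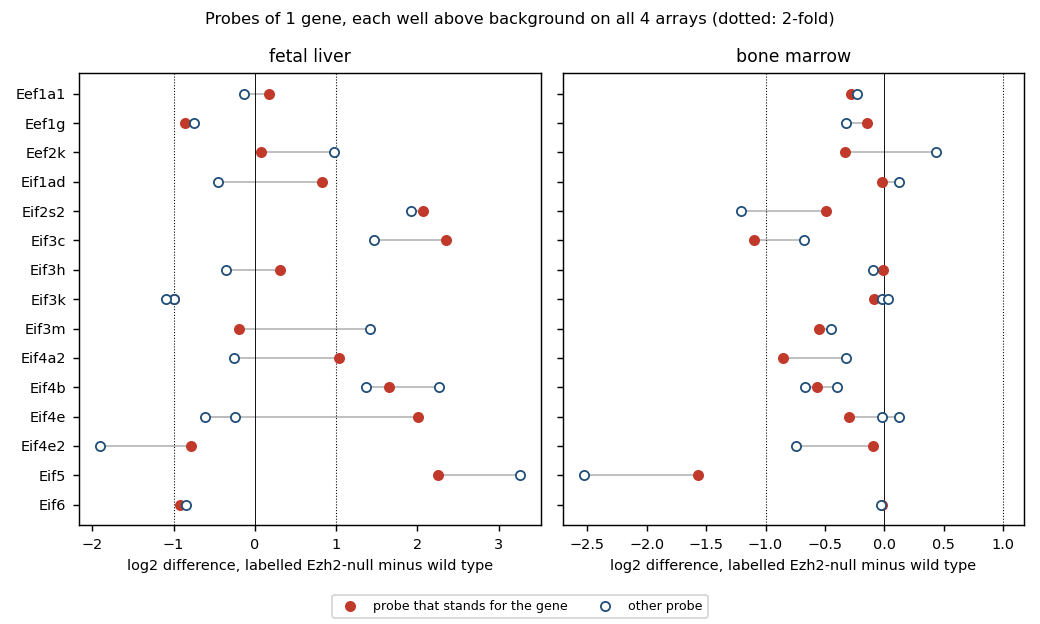
Log2 difference, labelled Ezh2-null minus wild type, of each probe of the 15 members with several probes well above background on all 4 arrays, in fetal liver (left) and bone marrow (right; the x axes differ); filled points are the probes that stand for the gene and open points the others. Eif5 and Eif2s2 keep their side in both panels, and the probes of Eif4e, Eif4a2, Eif3m and Eif1ad lie on both sides of 0 in fetal liver.

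Differences in fetal liver went with the position of the probe, in the members as in all genes. The Spearman rho between the first base of the probe in its transcript and the fetal liver difference was 0.30 over the 49 members and 0.30 over 10662 genes; in bone marrow it was -0.02 and -0.06. The median probe start of the 49 was base 1378. Among members whose probe starts at or before it, 5 of 25 were higher and 3 lower on labelled-null fetal liver, with a median of -0.46. Among those past it 11 of 24 were higher and 0 lower with a median of 0.91. Over all genes such counts by position were not made. Probe GC content went with the fetal liver difference at a rho of -0.34 over members and -0.23 over all genes. With the trend on position removed, 16 members were higher and 0 lower, Eif3g, Eif3i, Eif3k, Eif3b, Eif4a2 and Eif4g1 came inside 2-fold, and Eif2s1 (1.15) passed it. The part of RNA quality or labelling in the counts was not tested.

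**Figure D5:**
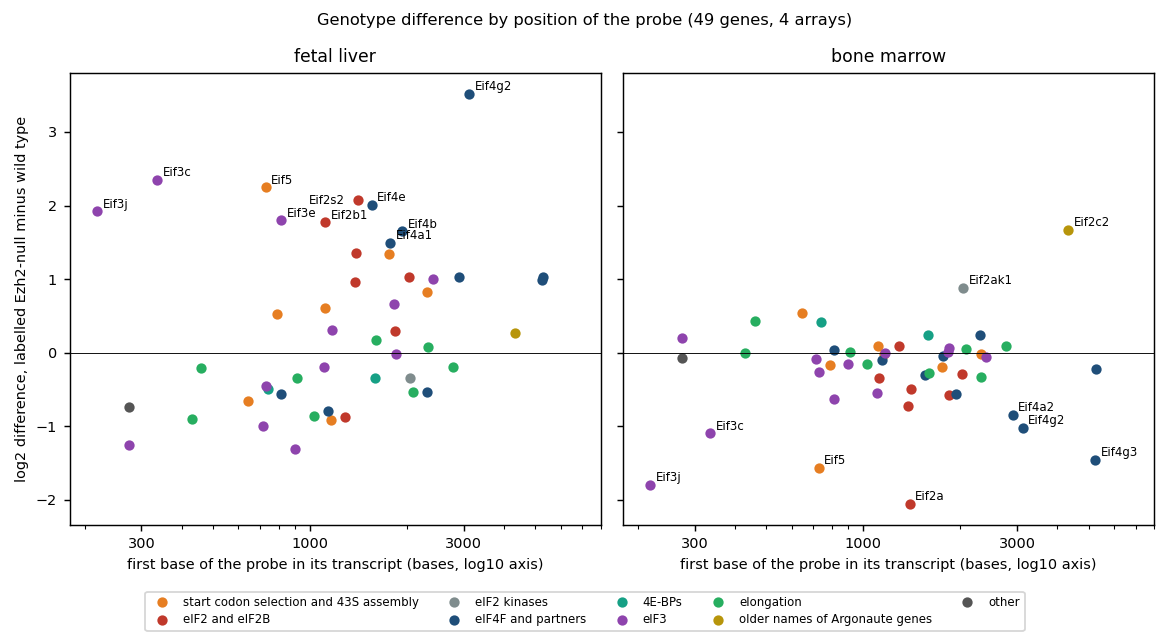
Log2 difference, labelled Ezh2-null minus wild type (y axis), against the first base of the probe in its transcript (x axis, log10) for the 49 members well above background on all 4 arrays, in fetal liver and bone marrow. In fetal liver the points past base 1378 have a median of 0.91 and those at or before it -0.46, while Eif3j, Eif3c and Eif5 are high with early probes.

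Many mRNAs of the translation machinery start with a run of pyrimidines, through which mTOR signalling controls their translation. Of 11 members on a list of such mRNAs, 2 were higher (Eif3e, Eif4b) and 1 lower (Eif3g) on labelled-null fetal liver with a median of -0.20. These shares of 18.2% and 9.09% lie near those of all genes, 15.4% and 13.5%. Of the 43 others compared, 16 were higher and 2 lower (37.2% and 4.65%) with a median of 0.52. With spike-in scaling the medians were 0.27 and 0.99, so the sign of the first depends on the scaling. In bone marrow 0 of 10 on the list were counted, against 4.54% of all genes higher and 7.74% lower. The 30 bases around the annotated start (15 before and 15 after, RefSeq, GRCm38.p6) are shown for 3 listed genes and for the 2 counted initiation factors Eif2s2 and Eif5, to set a pyrimidine start beside others; capitals mark the longest run of C and T.
Eef1a1: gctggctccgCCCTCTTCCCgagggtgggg
Eif3f: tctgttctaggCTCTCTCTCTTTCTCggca
Eif4b: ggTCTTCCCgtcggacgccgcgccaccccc
Eif2s2: cacgtaaggttggCTTTactgtacgcctgc
Eif5: gagaTCgacgtgcatgcgagccaatgacaa
They lie at chr9:78481710-78481739 (minus strand), chr7:108934400-108934429 (plus), chr15:102073758-102073787 (plus), chr2:154892892-154892921 (minus) and chr12:111538086-111538115 (plus). The longest runs are 10 bases in Eef1a1, 15 in Eif3f, 7 in Eif4b, 4 in Eif2s2 and 2 in Eif5. A run of at least 8 on the transcript's strand was found in 10 of 58 member starts (17.2%) and in 12.0% of 32851 starts in the table. Of the 11 listed genes 7 had a start in the table and 2 of these had such a run.

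Among the members, 43 of 56 had at least 1 start in the same table. The letters CACGTG, the E-box bound by Myc and related factors and the same on both strands, were found within 250 bases before and 50 after the start in 13 of 58 member starts (22.4%), and in 7.15% of all starts. By gene this was 11 of 43 members (25.6%), against 8.09% of 27025 genes: Eef2, Eef2k, Eif1b, Eif3a, Eif3f, Eif3k, Eif4a1, Eif4e, Eif4g1, Eif4h and Eif5a. A match is a description of the letters and not a site in use. Windows of 30 bases around the motif, in capitals, are shown for 4 of them that differ in their values.
Eif4e: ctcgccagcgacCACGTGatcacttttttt
Eif4g1: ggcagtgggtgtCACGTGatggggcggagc
Eif3k: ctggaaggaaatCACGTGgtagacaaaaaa
Eef2: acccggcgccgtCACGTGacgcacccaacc
These lie at chr3:138527028-138527057 (plus), chr16:20672661-20672690 (plus), chr7:28981915-28981944 (minus) and chr10:81176576-81176605 (plus), in GRCm38. The motif starts 228, 54, 44 and 43 bases before the start. Members with and without the letters overlapped in their values. Of the 11 with it, 3 were higher (Eif4e, Eif4a1, Eif4g1) and 1 lower (Eif3k) on labelled-null fetal liver (27.3% and 9.09%) with a median of -0.20. Of 31 compared without it, 12 were higher and 1 lower (38.7% and 3.23%, against 15.4% and 13.5% of all genes) with a median of 0.66. In bone marrow 0 of 10 with it were counted and 6 of 32 without it were lower, against 7.74% of all genes; 1 of the 6 is Eif2c3.

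Of 43 further genes of the pathway that are no members (partners of the cap and the poly(A) tail, release and recycling factors, eIF2 phosphatase subunits, mTOR partners and S6 kinases, modifying enzymes and mitochondrial factors), 39 were compared in fetal liver, where 14 were higher (35.9%, against 15.4% of all genes) and 5 lower (12.8%, against 13.5%) on the labelled-null array. In bone marrow 2 of 40 were higher (against 4.54% of all genes) and 6 lower (against 7.74%). Abce1 and Impact, counted as higher in fetal liver, were well above background on labelled-null fetal liver alone, so the condition fixed their direction. The same held for Tsc2, counted as lower in bone marrow and well above background on wild-type bone marrow alone. The lower share in fetal liver and the higher share in bone marrow lie near the background. Highest in fetal liver were Mcts1, a recycling factor (at least 6.86-fold), and Larp1, which binds pyrimidine-tract mRNAs and read 555 and 3442, then 159 and 67.7 (6.20-fold higher, and 2.35-fold lower in bone marrow). Lowest were Denr, the partner of Mcts1, which read 172 and 20.8, then 159 and 159.7 (8.28-fold lower in fetal liver), and Tsfm, the mitochondrial elongation factor (at least 3.09-fold). The partners Mcts1 and Denr stood on opposite sides. In bone marrow the release factor gene Gspt1 read 177 and 49.6 and the S6 kinase gene Rps6kb1 read 32.7 and 11.9, differences of -1.84 and -1.46, while Paip2b (1.42) and Dph2 (at least 1.19) were the counted higher ones.

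Between sources, Tsc1, an mTOR inhibitor, was highest in wild-type bone marrow (46.1 and 297, a difference of 2.69), followed by the diphthamide enzyme gene Dph5 (2.65), and Larp1 (-1.80) and Dph2 were lowest. On the labelled-null arrays Denr (2.94) and Tsfm were highest and Larp1 (-5.67) and Gspt1 (-4.14) lowest. Like Eif4g2, Eif5 and Eif3j, the genes Larp1, Gspt1, Pabpc1 (1.65 and -1.45) and Abcf1 (2.21 and -1.05) were past 2-fold higher on labelled-null fetal liver and lower on labelled-null bone marrow. The last 2 were named after their values were seen. This order was found in 1.94% of the 11177 genes well above background on all 4 arrays. Its share over the further genes of the pathway was not taken.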

How the data were processed

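RNA from MEP was hybridised to 4 single-colour (Cy3) arrays, 1 per group, on 1 slide. The deposited intensity values are background-subtracted processed signals made by Feature Extraction 10.7.3.1, per the file headers. The deposited series table holds the same linear intensity values rounded to 3 significant digits, as a match by feature number showed, and served as an alternative. All other values were computed here as log2 of the deposited intensities.

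Control spots and outlier spots (95 to 135 of 43020 per array) were left out, repeat spots were averaged as log2 values, and each array's 75th percentile over probes well above background on all 4 was subtracted. The probe with the highest mean stood for a gene. Genes were named through RefSeq by accession (26049 probes), symbol (3200) or older symbol (930), and 9250 kept the file's name. Differences were counted at 2-fold and had no test. The additive model was fitted with limma 3.58.1 in R 4.3.3 on genes well above background on at least 2 arrays, with lower signals raised to the highest floor, Benjamini-Hochberg adjustment at 0.05, and was tested on simulated data. Other computations used Python 3.11.15. Probe coordinates are mm9, per the file headers. Start windows come from RefSeq, GRCm38.p6, matched by symbol.

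All members could be named. Values on all 4 arrays were given for the core initiation, exchange, kinase, cap-binding and elongation genes, for the 5 highest, 5 lowest and 3 largest bounds each way in a comparison, and for members past 2-fold the same way in both genotypes or sources. Of the wider list, the 2 highest and 2 lowest per comparison were named. Members and lists, the pyrimidine-tract list included, were chosen with earlier results of these data known. Alternatives changed the scaling, background correction, choice of probe, filter, pseudocount and position trend. The comparison of other probes was chosen after seeing the data.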

Additional observations from a re-analysis of the deposited data

Results flagged for a closer look

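Eif4g2, Eif5, Eif3j, Eif3c and Eif2a passed 2-fold in opposite directions in the sources, higher on the labelled-null array in fetal liver and lower on it in bone marrow. The bone marrow difference minus the fetal liver one was -4.54 for Eif4g2, -3.81 for Eif5, -3.72 for Eif3j, -3.45 for Eif3c and -3.42 for Eif2a on the log2 scale. Each source has 1 array per genotype, so these differences between sources were not tested. The bone marrow side passed 2-fold in 4 of 10 alternatives for Eif4g2 (-1.02), 7 of 10 for Eif3c (-1.10, and -0.68 at its probe nearest the 3 prime end), 9 of 10 for Eif2a, 8 of 9 for Eif3j and 10 of 10 for Eif5. Eif2a (-0.86) and Eif3j (-0.90) came inside 2-fold with normexp background correction.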

How the results depend on the processing

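No paired analysis was possible because each group is 1 array and the labels give no replicate numbers. The deposited series table, the same signals rounded, left every count within 1.5 times. With the percentile over all probes, 7 members were lower in fetal liver, 4 lower in wild-type bone marrow against fetal liver, and 19 higher in the same comparison of labelled-null arrays. Quantile normalization gave 1 lower in fetal liver, 5 lower in wild type, and 35 genes called for source by limma. Spike-in scaling gave 0 lower in fetal liver, 40 higher and 0 lower in wild type, and 24 higher and 9 lower between labelled-null arrays, and it reversed Eef1d (0.32), Eif3i (0.24) and Eif5al3 (0.20) in wild type. Normexp background correction gave 9 higher in fetal liver, 0 higher and 3 lower in bone marrow, 10 higher and 5 lower in wild type, 3 higher and 9 lower between labelled-null arrays, and 7 members with a 4-fold difference between sources. With the position trend removed, 0 were lower in fetal liver and 3 in wild type (9.56% and 13.7% of all genes). Averaging probes reversed Eif4e in wild type (-0.26). With genes well above background on all 4 arrays, limma called 1 gene for genotype and 274 genes, 2 of them members, for source; fewer genes were tested there. Changes of scaling moved the shares of all genes as well. The cause of the other shifts was not tested. Eif2s2, Eif3c, Eif3j, Eif4a1, Eif4b, Eif4g2 and Eif5 stayed past 2-fold higher in fetal liver in all 10 alternatives.

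Precision is limited by the number of arrays, 1 per group. Signals near the floor give bounds only, and 7 of the 56 members were not well above background on at least 1 array.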
